A study of Mus musculus with 18 samples.

Results

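The genes described here mostly encode initiation and elongation factors of cytoplasmic translation in mouse liver. They were taken by name from the RNA-seq table, as every gene whose symbol begins with Eif or Eef followed by a digit, and the 5 kinases among the 65 matches (Eif2ak1, Eif2ak2, Eif2ak3, Eif2ak4 and Eef2k) were left out. This gave 60 genes with 104 transcripts, of 15572 genes and 24994 transcripts in the table. The name rule also brought in Eif4ebp inhibitors of initiation, methyltransferases of elongation factors and Eef1e1, a scaffold of the aminoacyl-tRNA synthetase complex. Liver RNA-seq compared refed wild-type (WT) C57bl/6j mice with refed JMJD1C-LKO mice, in which floxed Jmjd1c was deleted by Cre under the albumin promoter and so in hepatocytes. JMJD1C is a histone demethylase of H3K9me2 and H3K9me1. ATAC-seq, which marks open chromatin, covered livers of fasted WT, refed WT and refed JMJD1C-LKO mice, and ChIP-seq of H3K9me2, a histone mark of repressed chromatin, covered fasted and refed WT mice. Each group held 2 samples. All mice had been kept on chow for 6 to 8 weeks, and refed mice were given a high-carbohydrate diet after an overnight fast, for 6 h by the labels and for longer by the methods of the study. The labels give the fasted samples that same treatment, so fasted and refed were told apart by sample titles. Each RNA-seq library was a pool of RNA and each peak sample a single liver, and it is not given whether the 2 pools of a genotype held separate animals. The p-values below therefore measure only the spread between these libraries.

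Initiation begins when eIF2, loaded with GTP and initiator tRNA, joins the small ribosomal subunit with the help of eIF1, eIF1A, eIF5 and the large eIF3 complex. eIF2B recharges eIF2 with GTP. The eIF4 factors bind the mRNA cap (eIF4E), unwind the leader (eIF4A with eIF4B and eIF4H) and bridge mRNA and ribosome (eIF4G), while the 4E-binding proteins, encoded by Eif4ebp1, Eif4ebp2 and Eif4ebp3, compete with eIF4G for eIF4E and release it when phosphorylated by mTOR after feeding. In elongation eEF1A delivers aminoacyl-tRNA, the eEF1B subunits recharge eEF1A, and eEF2 moves the ribosome along the mRNA.

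The promoters of 3 members are shown because their starts carried ATAC-seq summits in several livers. Eif3b and Eif3f were the members, with Eif5a, that had a summit in all 4 WT livers, and Eif2s1 was the only member with one in both JMJD1C-LKO livers. Each sequence is the 250 bases before the RefSeq start (GRCm38.p6, the mm10 build), at chr5:140419055-140419304 (plus strand) for Eif3b, chr7:108934165-108934414 (plus strand) for Eif3f and chr12:78861822-78862071 (plus strand) for Eif2s1. Capitals mark letters of the motifs searched, here an E-box (CACGTG) and a pair of CCAAT boxes in Eif3f and the NRF1 core (GCGCATG, on the other strand) in Eif2s1. The Eif3b window held none of them.
Eif3b: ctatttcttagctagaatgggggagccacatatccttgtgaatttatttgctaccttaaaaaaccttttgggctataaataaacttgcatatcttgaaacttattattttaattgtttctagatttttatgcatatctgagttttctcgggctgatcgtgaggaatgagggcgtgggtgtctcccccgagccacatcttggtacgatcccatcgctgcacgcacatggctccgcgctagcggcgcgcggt
Eif3f: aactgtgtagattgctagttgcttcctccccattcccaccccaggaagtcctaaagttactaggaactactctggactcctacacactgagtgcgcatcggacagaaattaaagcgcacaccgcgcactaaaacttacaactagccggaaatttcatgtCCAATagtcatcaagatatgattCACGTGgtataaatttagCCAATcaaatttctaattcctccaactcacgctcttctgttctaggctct
Eif2s1: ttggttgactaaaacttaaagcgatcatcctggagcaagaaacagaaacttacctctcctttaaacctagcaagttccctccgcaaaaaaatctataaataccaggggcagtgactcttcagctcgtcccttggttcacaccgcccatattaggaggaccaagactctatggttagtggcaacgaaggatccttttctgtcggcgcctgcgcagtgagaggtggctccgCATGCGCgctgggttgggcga

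E-boxes are shown because USF-1, the transcription factor through which the study links JMJD1C to promoters, binds CACGTG. In the RefSeq promoters at hand, 250 bases before to 50 after a start, 46 of the 60 members had a sequence, and 10 of them (21.7%) held CACGTG on either strand, against 9.99% of the 11206 promoters of genes tested in RNA-seq and 7.24% of all 27025 promoters. Eif3a held its E-box downstream of the start, and the other 9 members held at least 1 upstream. Each is shown in 30 bases with the E-box in capitals, read on the strand of the gene.
Eef1akmt4: tgacggaagttcCACGTGtttgtgtggagc
Eef2: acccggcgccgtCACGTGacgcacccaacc
Eif1b: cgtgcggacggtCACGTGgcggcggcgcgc
Eif3f: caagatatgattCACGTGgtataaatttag
Eif3k: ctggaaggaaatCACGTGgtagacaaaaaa
Eif4a1: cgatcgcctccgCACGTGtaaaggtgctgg
Eif4g1: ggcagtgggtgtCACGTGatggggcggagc
Eif4h: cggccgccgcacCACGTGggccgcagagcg
Eif5a2: actaatccgcagCACGTGgggttgccaggg
The E-boxes began between 189 bases (Eif4a1) and 24 bases (Eif1b) before the start, and Eif5a2 held a further E-box, which began 117 bases before its start. A match is a description of letters and shows no binding. Among the 12 members with a sequence that were lower in the RNA-seq comparison below, 2 (Eif3a and Eif4a1) held an E-box. The other motifs, each read on both strands, were in 14 of 46 members for the ETS core CCGGAAG (30.4%, against 17.2% of the promoters of tested genes), 7 for GCGCATG (15.2% against 6.60%), 7 for the YY1 core AAGATGG (15.2% against 7.03%), 13 for CCAAT (28.3% against 38.8%), 1 for the cAMP response element TGACGTC (2.17% against 5.35%) and none for TGATGCA, a C/EBP-ATF letter string (1.94% of tested genes). A pyrimidine-rich start of the TOP type, a C followed by 4 bases that are each C or T, was found at the annotated start of 2 members, Eif2s3x and Eif3f (4.35% against 2.47%). A single annotated start per gene was read, so a TOP start even a base away from it would be missed.

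Jmjd1c itself checks the labels of the RNA-seq comparison. Its level was 22.0 and 22.8 CPM (counts scaled to a common library size) in the WT libraries and 20.0 and 20.5 CPM in the JMJD1C-LKO libraries, a log2 fold change of −0.14 (SE 0.08) that was not called (edgeR adjusted p = 0.233). The deposited counts cover whole transcripts and show no single exon. The libraries are called WT and LKO-labelled below, and every direction rests on the labels. The 4 libraries held 51265128 to 54400509 estimated counts, of which the members took 1.08% to 1.22%. Summed hepatocyte markers (Alb, Apoa1, Ttr, Cps1, Ass1 and Hnf4a) were 105951 to 109076 CPM in WT and 96562 to 108047 CPM in LKO-labelled libraries, and 2 of the 6, Cps1 and Ass1, were called higher (log2 fold change 0.64 each). The 5 Kupffer cell markers (Adgre1, Clec4f, Cd5l, Vsig4 and Csf1r) summed to 201 to 211 CPM in WT and 397 to 576 CPM in LKO-labelled libraries and all 5 were called higher, as were 4 of 5 endothelial markers (82.8 to 84.9 against 113 to 148 CPM), 2 of 5 lymphocyte markers (2.55 to 2.82 against 4.59 to 6.26 CPM) and 1 of 5 stellate markers (156 to 160 against 172 to 203 CPM). Of 4 erythroid markers 1 was called higher (356 to 653 against 564 to 576 CPM), and of 5 pancreatic markers 2 were tested and 1 was called higher (5.66 to 5.84 against 8.85 to 8.88 CPM). The part of these cells in the results below was not tested. In whole liver, fewer cells of a type and less RNA per cell cannot be told apart.

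Per transcript length the members spanned a wide range of levels. The elongation factor Eef1a1 was the most abundant member in WT liver, at 3424 and 3942 TPM (counts divided by transcript length and scaled to the same sum in each library), followed by Eef2 at 675 and 824 TPM. Behind them came Eif5a, the hypusine-bearing factor of elongation and termination, at 578 and 632 TPM, and Eif1, which keeps start-site scanning accurate, at 500 and 525 TPM. The lowest was Eif5a2, the paralog of Eif5a, at 0.111 and 0.0863 TPM. All 60 members passed the filter on low counts.

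In refed liver, translation factor genes were lower more often than higher in the LKO-labelled libraries, by small amounts, whereas 2 of the 3 inhibitors of eIF4E were higher. At an adjusted p under 0.05 in edgeR's quasi-likelihood test with Benjamini-Hochberg adjustment, 17 members were lower (28.3%), 3 were higher (5%) and 40 were not called. Over all 14151 genes tested, 13.4% were called lower and 14.6% higher. The median log2 fold change was −0.17 over the members and 0.01 over all genes tested, and 46 of 60 members lay below zero. Both LKO-labelled libraries lay below both WT libraries in 37 members (61.7%), a pattern seen in 33.8% of all genes, and above both in 9 (15%), against 33.7%. Abundant genes as a whole were lower more often. Among genes with a mean of at least 10 CPM, a limit chosen after seeing the data, 16 of 54 members (29.6%) and 19.9% of 7535 genes were lower, with medians of −0.18 and −0.05. In that set both LKO-labelled libraries lay below both WT libraries in 36 members (66.7%) and in 42.5% of genes. They lay above both in 6 members (11.1%) and in 30.2% of genes. Most of the 17 lower calls were lost when either WT library was left out, while the median change moved little. The median log2 fold change over the members was −0.18 without WT replicate 1 and −0.16 without WT replicate 2. In those fits the lone WT library is assumed to vary like the LKO-labelled pair. The lost calls therefore do not show which group's libraries they rest on. Eif2s2, Eif2b3 and Eef1e1 were lower whichever library was left out.

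**Figure D1:**
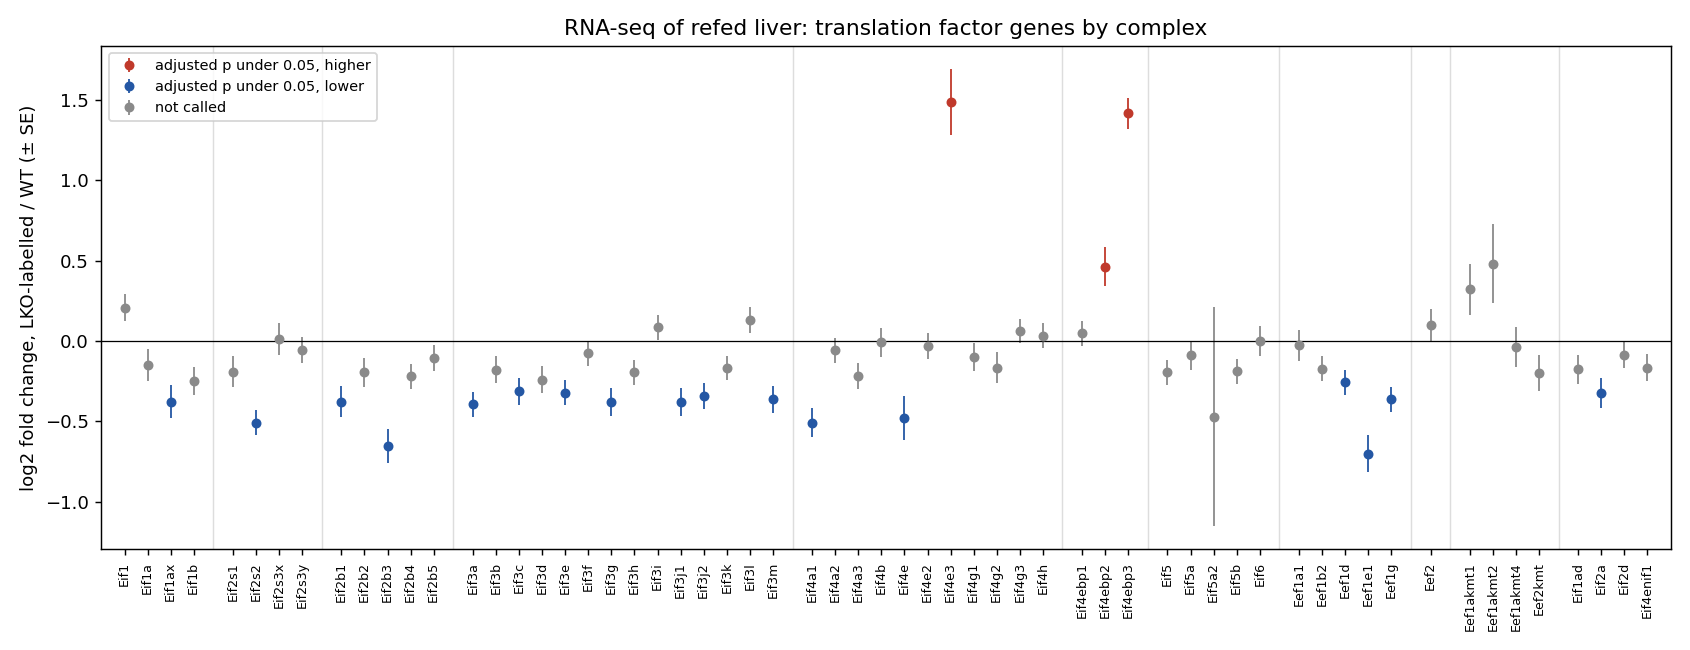
Log2 fold change of each of the 60 members between LKO-labelled and WT refed liver (y axis), grouped along the x axis by complex and separated by vertical lines. Points are fits over 2 libraries a group, bars are standard errors, blue and red mark members called lower (17) and higher (3), and the called changes above zero are Eif4e3, Eif4ebp2 and Eif4ebp3.

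The members with the largest fold changes, Eif4e3 and Eif4ebp3, belong to the cap-binding proteins and their inhibitors. Eif4ebp3 was at 108 and 112 CPM in WT and at 268 and 319 CPM in LKO-labelled libraries, and the groups did not overlap. Its log2 fold change was 1.41 (SE 0.10, edgeR adjusted p = 4.06e-05), the smallest p of any member. Eif4ebp2 was at 16.6 and 21.9 CPM in WT and at 27.1 and 25.9 CPM in LKO-labelled libraries, without overlap, with a log2 fold change of 0.46 (SE 0.12, edgeR adjusted p = 0.0206), and this call was lost without WT replicate 1. Eif4ebp1, the member of the family most studied as an mTOR substrate, was at 44.9 and 42.2 CPM against 45.6 and 44.3 CPM, with a log2 fold change of 0.05 (SE 0.08, edgeR adjusted p = 0.694). Eif4e, the cap-binding target of all of these, was lower, at 42.9 and 49.7 CPM in WT and 38.3 and 28.2 CPM in LKO-labelled libraries (log2 fold change −0.48, SE 0.14, edgeR adjusted p = 0.0268). That call held in 1 of the 4 fits that left out a library, the one without LKO replicate 1, and was lost in the other 3. Eif4e3, an atypical cap-binding protein on chr6:99625137-99666771, was low in liver, at 3.61 and 3.66 CPM in WT, and was 7.97 and 12.4 CPM in LKO-labelled libraries (log2 fold change 1.49, SE 0.21, edgeR adjusted p = 0.00107). The LKO-labelled library with more Eif4e3 and more Eif4ebp3, replicate 2, was also the one with the higher Kupffer and endothelial marker sums (576 and 148 CPM, against 397 and 113 CPM in replicate 1), and the part of those cells in either change was not tested. Eif4e2, a cap-binding repressor, was not called as a gene (log2 fold change −0.03, SE 0.08, edgeR adjusted p = 0.811).

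Per length, the level of Eif4ebp3 in WT liver (159 and 170 TPM) was above that of Eif4ebp1 (77.9 and 74.8 TPM) and of Eif4ebp2 (15.8 and 21.3 TPM). The summed TPM of the 3 inhibitors was 17.3 and 15.3 times the TPM of Eif4e in WT libraries and 38.3 and 59.6 times in LKO-labelled libraries. These are ratios of mRNA levels and carry no measure of the proteins or of their phosphorylation, on which the binding of eIF4E depends. With 2 libraries against 2, the exact permutation test of such a ratio cannot give a two-sided p below 0.333.

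**Figure D2:**
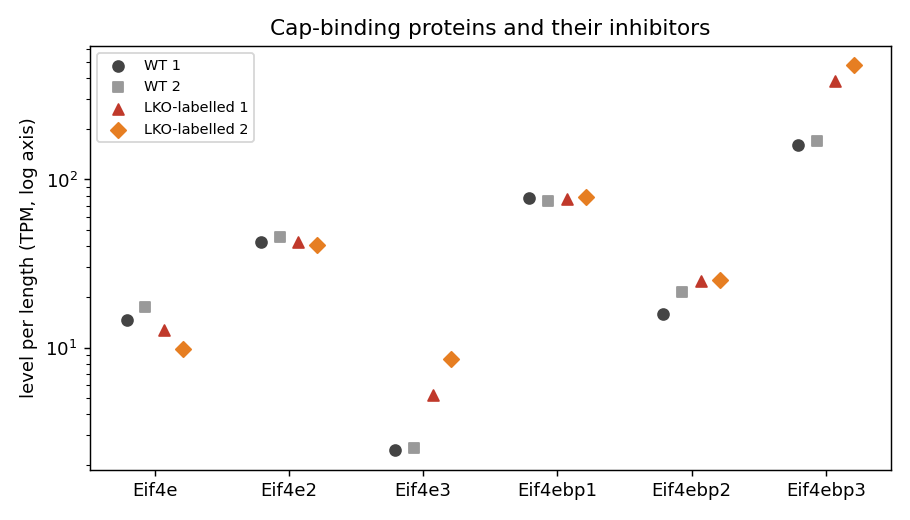
Level per length (TPM, log axis) of the cap-binding proteins Eif4e, Eif4e2 and Eif4e3 and of the inhibitors Eif4ebp1, Eif4ebp2 and Eif4ebp3, with 1 symbol for each of the 4 RNA-seq libraries. Eif4ebp3 rose from 159 and 170 TPM in WT to 384 and 479 TPM in LKO-labelled libraries, while the points of Eif4ebp1 lay together at 74.8 to 78.2 TPM.

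In the eIF4F group, the helicase Eif4a1 was lower. It was at 401 and 402 CPM in WT and at 304 and 261 CPM in LKO-labelled libraries, with a log2 fold change of −0.51 (SE 0.09, edgeR adjusted p = 0.00389), and the call was lost without WT replicate 2. Its paralog Eif4a2 was not called at −0.06 (SE 0.08). The scaffolds Eif4g1, Eif4g2 and Eif4g3, the helicase cofactors Eif4b and Eif4h, and Eif4a3, the helicase of the exon junction complex, were not called either, with log2 fold changes from −0.22 to 0.06. Of the 11 Eif4 genes, 2 were lower (18.2%) and 1 was higher (9.09%). Over all genes tested these shares were 13.4% and 14.6%, and at a mean of at least 10 CPM they were 19.9% and 14.6%.

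The eIF3 complex gave 7 of the 17 lower members, which is 50% of its genes. Over all genes tested 13.4% were lower, and at a mean of at least 10 CPM 19.9% were. Of the 14 Eif3 genes none was higher and the median log2 fold change was −0.28. Both LKO-labelled libraries lay below both WT libraries in 12 of them. That ordering was seen in 33.8% of all genes tested and in 42.5% of genes with a mean of at least 10 CPM. Eif3a, the largest scaffold subunit, on chr19:60761116-60790693 (minus strand), was at 424 and 407 CPM in WT and at 317 and 316 CPM in LKO-labelled libraries (log2 fold change −0.39, SE 0.08, edgeR adjusted p = 0.00602). Eif3c, which forms the core with Eif3a, was at 187 and 180 CPM against 155 and 140 CPM (−0.31, SE 0.08, edgeR adjusted p = 0.0216). The libraries of the groups did not overlap for either of these genes. The RNA-binding subunit Eif3g was at 96.4 and 97.8 CPM against 79.7 and 69.7 CPM (−0.38, SE 0.09, edgeR adjusted p = 0.0113). The PCI-domain subunits Eif3e (107 and 107 against 88.0 and 83.7 CPM) and Eif3m (62.6 and 66.6 against 52.5 and 48.0 CPM) were lower by like amounts, at −0.32 and −0.36, with edgeR adjusted p of 0.0133 and 0.0115. Each of these 5 calls was lost when either WT library was left out.

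The remaining lower genes of this complex are a near-identical pair, Eif3j1 and Eif3j2, which encode a loosely bound subunit. Their counts were almost the same in every library, at 59.5 and 60.4 against 49.2 and 43.0 CPM for Eif3j1 and 60.9 and 60.9 against 50.4 and 45.8 CPM for Eif3j2. Both are uncertain, since the counting could split shared reads between the copies, and the table places both at the locus of Eif3j1 on chromosome 2, although RefSeq places Eif3j2 on chromosome 18. The log2 fold changes were −0.38 and −0.34 (edgeR adjusted p = 0.0115 and 0.0133), and both calls were lost when either WT library was left out. Against the rest, Eif3i and Eif3l lay above zero at 0.09 and 0.13 (SE 0.08 each) without being called, and both LKO-labelled libraries were above both WT libraries in these genes. Eif3b, Eif3d, Eif3f, Eif3h and Eif3k were not called, with log2 fold changes from −0.24 to −0.08.

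Of the eIF2 subunits, the beta subunit alone was called. Eif2s2, which encodes the beta subunit, on chr2:154871410-154892906 (minus strand), was at 204 and 200 CPM in WT and at 145 and 140 CPM in LKO-labelled libraries (log2 fold change −0.51, SE 0.08, edgeR adjusted p = 0.00167). Eif2s1, the alpha subunit whose phosphorylation blocks initiation under stress, was at 35.3 and 37.6 against 34.7 and 29.2 CPM (−0.19, SE 0.10, edgeR adjusted p = 0.180). The gamma subunit is encoded on both sex chromosomes. Eif2s3x was at 50.5 and 60.0 against 58.1 and 53.4 CPM (0.01, SE 0.10) and Eif2s3y at 38.7 and 38.4 against 38.0 and 36.2 CPM (−0.06, SE 0.08), and neither was called. The difference in change between subunits was not tested.

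In eIF2B, the exchange factor of eIF2, all 5 genes lay below zero and in all 5 both LKO-labelled libraries were below both WT libraries. The same ordering was seen in 33.8% of all genes tested and in 42.5% of genes with a mean of at least 10 CPM. Eif2b3, the gamma subunit, was at 17.1 and 17.4 CPM in WT and at 11.8 and 10.1 CPM in LKO-labelled libraries (log2 fold change −0.65, SE 0.11, edgeR adjusted p = 0.00252). Eif2b1, the regulatory alpha subunit, was at 38.0 and 35.0 against 30.2 and 26.0 CPM (−0.38, SE 0.10, edgeR adjusted p = 0.0179). Eif2b2, Eif2b4 and Eif2b5 were not called, with values from −0.22 to −0.11. Among the small factors, Eif1ax, which acts in scanning, was lower (17.6 and 19.3 against 15.1 and 13.4 CPM, −0.38, SE 0.10, edgeR adjusted p = 0.0233), and Eif1, Eif1a and Eif1b were not called, at 0.21, −0.15 and −0.25. Eif2a, a tRNA-binding factor that is no subunit of eIF2, was lower (39.4 and 40.0 against 34.3 and 29.2 CPM, −0.32, SE 0.09, edgeR adjusted p = 0.0297), and its locus overlaps Serp1 on the opposite strand by 64 bp. Whether the counting used strand is not given. The calls of Eif1ax, Eif2a, Eif2b1 and Eif3c held only without LKO replicate 1 among the 4 fits that left out a library. Eif5, Eif5b and Eif6, which act in start-site recognition, subunit joining and subunit separation, gave no call. Eif5a and its paralog Eif5a2 gave none either. The values of these genes ran from −0.47 (Eif5a2, SE 0.68) to 0.00.

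**Figure D3:**
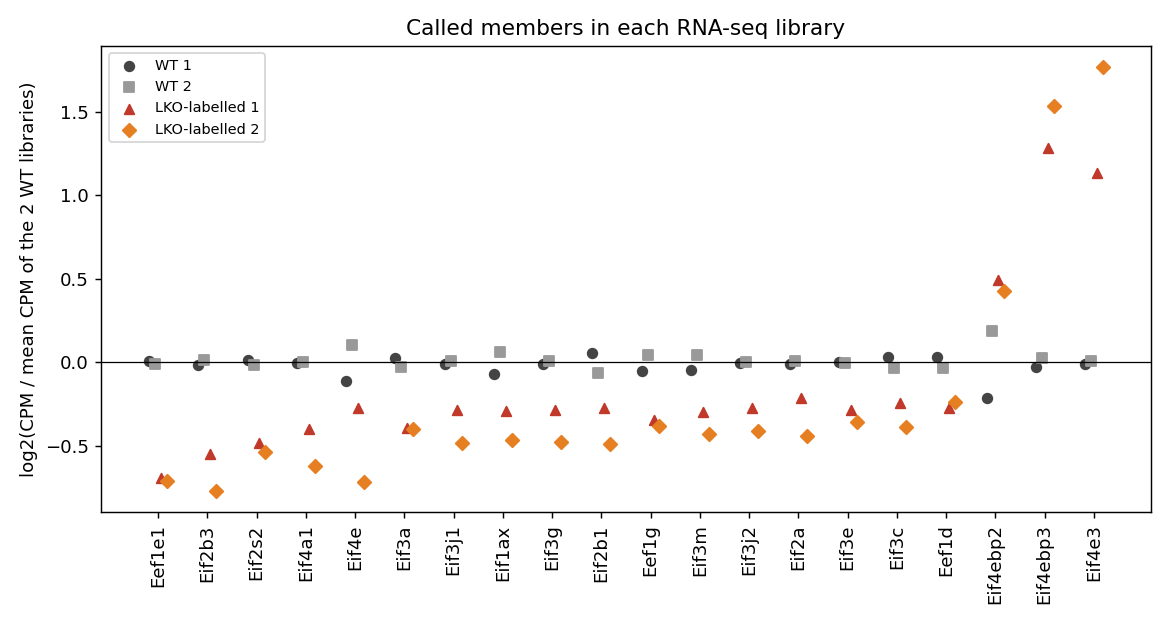
CPM of the 20 called members in each RNA-seq library on a log2 scale relative to the mean of the 2 WT libraries (y axis), ordered from the lowest to the highest fold change along the x axis. The LKO-labelled points of the 17 lower members lie below zero and below the WT points, and those of Eif4ebp3 and Eif4e3 lie more than 1 unit above zero.

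In elongation, 2 of the 3 subunits of the exchange factor eEF1B were lower, and the factors that carry tRNA and move the ribosome were not called. Over all genes tested 13.4% were lower, and at a mean of at least 10 CPM 19.9% were. Eef1g, the gamma subunit of eEF1B, on chr19:8967041-8978180 (plus strand), was at 253 and 271 CPM in WT and at 207 and 201 CPM in LKO-labelled libraries (log2 fold change −0.36, SE 0.08, edgeR adjusted p = 0.00941). Eef1d, its delta subunit, was at 137 and 131 against 111 and 114 CPM (−0.26, SE 0.08, edgeR adjusted p = 0.0347). Both calls were lost without either WT library. Eef1b2, the beta subunit, was at 208 and 224 against 192 and 192 CPM and was not called (−0.17, SE 0.08, edgeR adjusted p = 0.141). Eef1e1, which encodes a scaffold protein of the aminoacyl-tRNA synthetase complex, was at 12.0 and 11.8 against 7.37 and 7.29 CPM, the lowest log2 fold change of all members (−0.70, SE 0.12, edgeR adjusted p = 0.00238). Eef1a1 was at 3601 and 4056 against 3863 and 3656 CPM (−0.03, SE 0.10, edgeR adjusted p = 0.866) and Eef2 at 1230 and 1469 against 1437 and 1458 CPM (0.10, SE 0.10, edgeR adjusted p = 0.487). For both genes the groups overlapped. The methyltransferases Eef1akmt1, Eef1akmt2, Eef1akmt4 and Eef2kmt, which modify eEF1A and eEF2, gave no call, with values from −0.20 to 0.48. Of the remaining members, Eif1ad, Eif2d and Eif4enif1 were not called, from −0.18 to −0.08.

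The estimates of single transcripts were less often called. Of 22296 transcripts tested, 1.38% were lower and 2.12% higher, and of the 104 transcripts of members 3 were lower and 3 higher. The single transcripts of Eif4ebp3, Eif4e3 and Eif2s2 were among them and followed their genes. Eif4e2, not called as a gene, gave transcripts in both directions. The transcript NM_023314 went from 6.05 and 6.84 CPM to 13.3 and 14.1 CPM, and NM_001347083 went from 7.46 and 8.89 CPM to 2.77 and 2.02 CPM (edgeR adjusted p = 0.0331 and 0.0358). The Eif4a2 transcript NM_001123038 went from 96.0 and 84.5 CPM to 56.4 and 61.5 CPM (edgeR adjusted p = 0.0451). Transcripts of 1 gene share reads, so these are estimates of how reads were divided.

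Beyond the members, a list of 45 genes that regulate or assist translation (eIF2α kinases and phosphatase subunits, mTOR pathway genes, poly(A)-binding and release factors, mitochondrial factors) held 13 lower and 2 higher genes, with a median log2 fold change of −0.10, beside 13.4% lower and 14.6% higher over all genes tested, or 19.9% and 14.6% at a mean of at least 10 CPM. Mknk2, a kinase that phosphorylates eIF4E, was at 90.5 and 85.3 CPM in WT and at 169 and 208 CPM in LKO-labelled libraries (log2 fold change 1.10, SE 0.10, edgeR adjusted p = 1.72e-04). The S6 kinase gene Rps6kb1 was at 65.1 and 62.2 against 45.1 and 44.6 CPM (−0.51, SE 0.08, edgeR adjusted p = 0.00168). Its substrate Rps6 was lower at −0.36, and Rheb, the GTPase that activates mTOR, at −0.37. Eef2k, the kinase that inhibits eEF2, was at 11.8 and 12.5 against 8.01 and 6.50 CPM (−0.74, SE 0.13, edgeR adjusted p = 0.00383). The ribosome recycling factor Abce1 was lower at −0.56, the helicase Dhx29, which helps scanning through structured leaders, at −0.68, and Secisbp2, which acts in selenocysteine insertion, at −0.47. The poly(A)-binding protein gene Pabpc4 was lower at −0.33, and Paip2b was the other higher gene, at 0.37. None of the 4 eIF2α kinase genes was called. Whether the calls in this list hold with a library left out was not examined here.

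ATAC-seq summits are the positions of highest signal in the peaks called by the authors, and the lists were short for all genes. Within 1000 bp of a RefSeq start, 12 and 9 of the 60 members had a summit in the WT fasted livers and 5 in both. Over all 14119 tested genes with an annotated start, the percentages were 20.3%, 9.28% and 7.35%. After refeeding, 13 and 11 members had a summit in the WT livers and 7 in both, against 16.8%, 10.6% and 8.1% of genes. In the LKO-labelled livers 2 and 1 members had one and 1 in both, against 6.76%, 1.39% and 0.588% of genes. The lists of the LKO-labelled livers were short, with 1450 and 825 summits against 3119 to 7632 in WT livers, and the usable depth of each liver is unknown. With 825 summits kept per liver, the members with a summit in both livers numbered 2 (WT fasted), 1 (WT refed) and 1 (LKO-labelled), against 1.58%, 1.95% and 0.340% of genes. A missing summit is therefore a gene below the limit of that list.

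In all, 22 members had an ATAC-seq summit in at least 1 of the 6 livers, and 10 of these in exactly 1. The shares of all genes with these patterns were not counted, so the 22 cannot be set against a background. Eif3b had its summit 358 and 149 bp upstream of the start in the WT fasted livers and 222 and 151 bp upstream in the WT refed livers. Eif3f had summits 144 and 155 bp upstream in WT fasted livers, and in WT refed livers 24 bp downstream and 145 bp upstream. The upstream summits of Eif3f thus fell in the window printed above, upstream of its E-box, which begins 68 bp before the start. Eif5a had summits 117 to 207 bp upstream in the WT livers, and 19 bp upstream in LKO-labelled replicate 1. Eif5 (4 bp downstream and 3 bp upstream), Eif5b, Eif2s3y and Eef2kmt had a summit in both WT refed livers and in 1 WT fasted liver each, and Eef1d and Eif4a3 in both WT fasted livers and in WT refed replicate 1. The summits of Eif5b lay 809 to 887 bp upstream, and the start of Txndc9 is 802 bp from that of Eif5b. Eif2s1 had summits 118 and 206 bp upstream in the LKO-labelled livers and 116 bp upstream in WT fasted replicate 1, and none in the WT refed livers. The start of Atp6v1d lies 434 bp from that of Eif2s1. Other members with an ATAC-seq summit also share their window with another start. These are Eef1b2 (Ndufs1, 9 bp away), Eif2a (Serp1, 63 bp), Eif2b4 (Snx17, 165 bp) and Eef1d (Tigd5, 179 bp). Summits in such shared windows cannot be credited to the member alone.

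No member called in RNA-seq had an ATAC-seq summit in both WT refed livers. The 7 members with such a summit held no call and a median log2 fold change of −0.18, and the other 53 held 17 lower and 3 higher, with a median of −0.17. Over all genes tested with such a summit, 15.5% of 1144 were lower and 9.79% higher. Of the 20 called members, Eef1d, Eef1g, Eif2a, Eif4a1 and Eif4ebp2 had a summit in at least 1 liver.

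H3K9me2 summits were common at the members. They were within 1000 bp of the start in 49 and 58 of 60 members in the WT fasted livers and in 49 in both, against 51.5%, 74.0% and 51.2% of genes. WT refed replicate 2 had them at 54 members, against 61.5% of genes. WT refed replicate 1 had none, against 0.135% of genes, and the share of genes with a summit in both WT refed livers was 0.0708%. That list held 1297 summits against 7690 to 13456 in the other H3K9me2 livers and stands apart from all of them, so fasted and refed livers cannot be compared over replicates here. Abundant genes carried these summits more often. Among genes with a mean of at least 10 CPM, 48 of 54 members (88.9%) had a summit in both WT fasted livers, against 76.3% of 7521 genes, and the shares were 98.1% and 94.3% in WT fasted replicate 2 and 96.3% and 86.6% in WT refed replicate 2. Members with one had a median WT level of 77.6 TPM and those without 17.6 TPM, and over all genes tested these medians were 15.2 and 1.63 TPM.

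**Figure D4:**
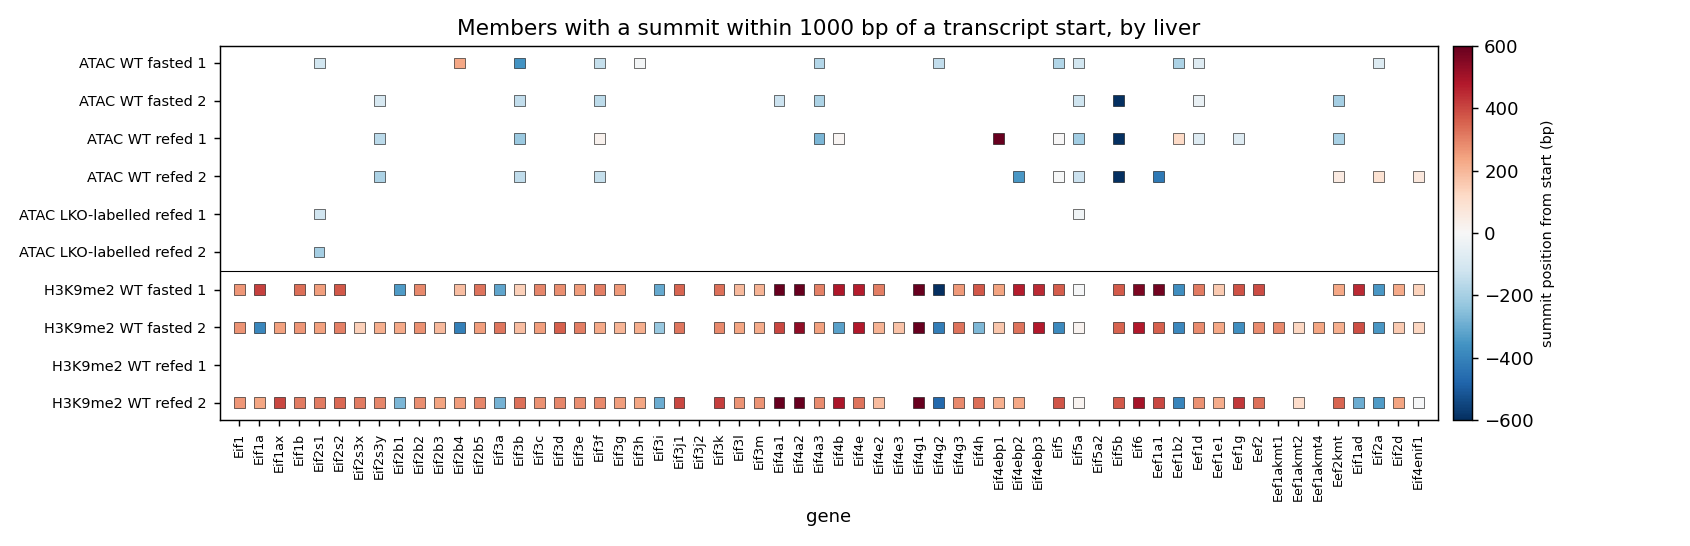
Members (x axis, grouped by complex) with an ATAC-seq or H3K9me2 summit within 1000 bp of a transcript start in each of 10 livers (y axis), with squares coloured by the position of the summit from the start in bp (blue upstream, red downstream, colour range ending at 600 bp on either side). H3K9me2 summits fill the rows of both WT fasted livers and of WT refed replicate 2, WT refed replicate 1 is empty, and ATAC-seq squares are fewer, with 2 and 1 in the LKO-labelled livers.

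Most members had an H3K9me2 summit in each of the 3 fuller lists. In 48 members the summit was in both WT fasted livers and in WT refed replicate 2. The share of all genes with that pattern was not counted. Among genes with a mean of at least 10 CPM, 76.3% had a summit in both WT fasted livers and 86.6% in WT refed replicate 2. Of the members, Eif4ebp3 alone had one in both WT fasted livers, 447 and 476 bp downstream, and none in WT refed replicate 2. Both its scores were low, at rank 5689 of 7690 and rank 12705 of 13456. Eif4e3, Eef1akmt1 and Eef1akmt4 had a summit in WT fasted replicate 2 alone, Eef1akmt2, Eif1ax, Eif2b3, Eif2s3x, Eif2s3y and Eif3h in WT fasted replicate 2 and WT refed replicate 2, and Eif3j2 and Eif5a2 in no liver. The summits of Eif4a1 were among the strongest, at rank 26 of 7690 in WT fasted replicate 1 and rank 2 of 9929 in WT refed replicate 2, at 621 and 605 bp downstream of its start. Of the 20 called members 16 had a summit in both WT fasted livers, a share close to the 49 of 60 (81.7%) of all members. By change, the 49 members with a summit in both WT fasted livers held 14 lower and 2 higher, and the 11 without held 3 lower and 1 higher. Eif3j2 is among those 3, and its summits were sought at its own RefSeq locus while its counts are placed at that of Eif3j1. Over all genes tested, 18.4% were lower and 10.6% higher with such a summit, and 8.07% and 18.8% without. The genes with such a summit were also more abundant, with a median of 26.6 CPM against 3.04 CPM without. The part of abundance in this contrast was not tested. H3K9me2 was not measured in LKO-labelled livers here.

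At the members, H3K9me2 summits lay mostly downstream of the start and ATAC-seq summits more often upstream. Positions at other genes were not measured, so this is not shown to be particular to the members. The median position of the H3K9me2 summit nearest the start was 300 bp, 236.5 bp and 282 bp downstream in WT fasted replicates 1 and 2 and WT refed replicate 2, with 42 of 49, 48 of 58 and 46 of 54 members downstream. The median ATAC-seq summit lay 130.5 and 149 bp upstream in the WT fasted livers and 78 and 145 bp upstream in the WT refed livers, with 11 of 12, 9 of 9, 8 of 13 and 8 of 11 members upstream. All 22 members with an ATAC-seq summit also had an H3K9me2 summit in at least 1 liver, as did 58 of all 60 members. Restricting the window to 1000 bp upstream and 100 bp downstream left 13 members (21.7%) with an H3K9me2 summit in both WT fasted livers, and 10.9% of all genes.

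**Figure D5:**
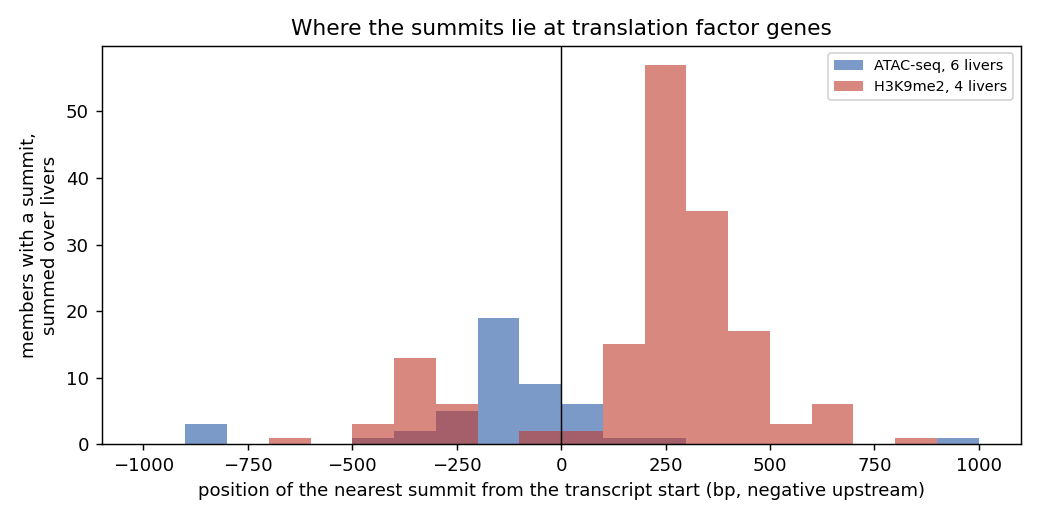
Number of members, summed over livers, by the position of the summit nearest a transcript start (x axis, bp, negative upstream, bins of 100 bp), for ATAC-seq in 6 livers (blue) and H3K9me2 in 4 livers (red). ATAC-seq summits lie more often upstream of the start and H3K9me2 summits mostly downstream, with liver medians of 78 to 149 bp upstream in WT livers and 236.5 to 300 bp downstream. Positions at other genes were not measured.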

How the data were processed

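RNA-seq, ATAC-seq and H3K9me2 ChIP-seq of mouse liver were analysed, with 2 samples a group. Matched ChIP input samples were not used here. The RNA-seq table deposited by the authors holds unscaled estimated counts for RefSeq transcripts (mm10). The submitters' processing notes name HISAT2 and Partek, and the counting method and its use of strand are not given in the sources used here. For the peak assays the authors deposited the MACS2 (2.1.1) summits of each sample, called per sample at a q-value of 0.05, each with the −log10 of its q-value, and required 2.5-fold enrichment over input for ChIP-seq. The study gives a single approximate read depth for ChIP-seq, but these lists hold no counts, so the usable depth of each sample is unknown. A deposited table of the authors' own fold changes and p-values per transcript was not used.

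Counts were summed per gene, rounded and tested in edgeR 4.0.16 (R 4.3.3; TMM, filterByExpr, quasi-likelihood F test, Benjamini-Hochberg adjustment over 14151 genes, threshold 0.05), after a check on simulated counts. CPM use TMM library sizes, and TPM divide by RefSeq transcript length. A summit was assigned to a gene within 1000 bp of a curated RefSeq start (GRCm38.p6), each liver apart, with no test. Promoters came from RefSeq and 46 of 60 members matched. Alternatives were upper-quartile and RLE scaling, DESeq2 1.42.0, limma-voom 3.58.1, no filter, a replicate block, single transcripts, each library left out, other windows, scores and list lengths. The members and lists were chosen with earlier results of these data known. Values are given for every called member, the Eif4ebp and gamma-subunit genes, Eef1a1, Eef2, Eif2s1 and the members with reproducible summits, and for up to 10 called pathway genes by p. Eef1a2 and Eif4e1b were not analysed here, and the comparison of protein sequences was not run.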

Additional observations from a re-analysis of the deposited data

How the results depend on the processing

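The count of 17 lower and 3 higher members was the same under RLE scaling, DESeq2, limma-voom, without the filter and with the replicate block (3 higher and 17 lower), and under each the 17 lower genes were the same genes. Replicate numbers are shared by the genotypes, but the deviations of replicate 1 libraries were not related (correlation −0.00461 over 14151 genes), so the numbers were not used as pairs. Upper-quartile scaling gave 4 higher and 15 lower members, and over all genes it changed the split from 2066 higher and 1892 lower to 2518 and 1330, with median log2 fold changes of −0.11 over the members and 0.07 over all genes. With Eif3j1 and Eif3j2 taken as 1 gene, 16 were lower. Per transcript 3 were lower. Leaving out single libraries gave 3 to 25 lower members (4 without WT replicate 1, 3 without WT replicate 2, 25 without LKO replicate 1 and 12 without LKO replicate 2) and 2 to 4 higher, the lone library being assumed to vary like the other group.

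Members with a summit in both livers depended on the list. For ATAC-seq, a summit in either liver gave 16, 17 and 2 members in WT fasted, WT refed and LKO-labelled livers, single livers gave 9 to 12, 11 to 13 and 1 to 2, and 825 summits per liver gave 2 and 1 in the WT groups. A score of at least 5 left 4 in WT refed and 0 in LKO-labelled livers. For H3K9me2 in WT fasted livers, a window of 1000 bp upstream to 100 bp downstream gave 13 and 1297 summits per liver gave 9. In WT refed livers either liver gave 54, and single livers 0 to 54. The causes were not tested.

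Some uncalled members near zero changed sign. Upper-quartile scaling gave log2 fold changes of 0.0396 for Eef1a1, 0.0291 for Eef1akmt4, 0.0099 for Eif2s3y, 0.0074 for Eif4a2, 0.0578 for Eif4b and 0.035 for Eif4e2, and Eif6 was at −0.0019 in DESeq2 and −0.0051 without the filter. Leaving out single libraries took Eef1a1 from −0.112 to 0.0581, Eef1akmt4 from −0.129 to 0.046, Eef2 from −0.0241 to 0.231, Eif2s3x from −0.11 to 0.138, Eif4b from −0.102 to 0.0859, Eif4e2 from −0.0888 to 0.0192, Eif4ebp1 from −0.0016 to 0.0897, Eif4h from −0.0057 to 0.0669, Eif5a2 from −2.2 to 0.248 and Eif6 from −0.11 to 0.113.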
